A study of Mus musculus with 13 samples.

Results

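The interferon-stimulated genes described here are 37 mouse genes of the type I interferon response, from the receptor chains and RNA sensors to the antiviral effectors. They were listed by name, by a rule that uses no measured value but with earlier results of these data known, and all 37 were present among the 23361 genes in the deposited tables. The question was whether they differed between liver tumours given small interfering RNA (siRNA) against Yap and tumours given a control siRNA, both carried by lipid nanoparticles. Members of this response are common readouts of nucleic acid sensing, and siRNA and its carrier are foreign to the cell, which makes them relevant to a study of this design.

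RNA was taken from liver tumours of mice that lacked Mst1 in the germline (Mst1-/-) and in which Cre recombinase from an injected adenovirus deleted a floxed Mst2 (Mst2Flox/Flox). Mst1 and Mst2 are the kinases of the Hippo pathway that restrain the transcriptional coactivator Yap. The strain was mixed, C57BL/6 and 129Sv. Tumours were followed by ultrasound, and the siRNA was injected into the vein over a 9-day period.

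The siYap group held 5 libraries and received siYap-LNPs. The siLuc group held 8 libraries and received siLuciferase-LNPs, whose target, firefly luciferase, is no mouse gene. Every animal of both groups had the same double deletion, the adenovirus and a nanoparticle, so neither deletion, virus nor carrier is contrasted here. The Cre reached the cells that the virus infected, and each sample was bulk tumour RNA that also held the host's vessels, stroma and immune cells. In such RNA, fewer cells of a type and less RNA per cell cannot be told apart.

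In the type I interferon response, interferon alpha and beta bind the Ifnar1 and Ifnar2 receptor, whose kinases Jak1 and Tyk2 phosphorylate Stat proteins such as Stat2. These join Irf9 to form a factor that binds the interferon-stimulated response element (ISRE) in the promoters of the responding genes. The products degrade viral RNA, block translation, hold back virus particles or sense more RNA, so that part of the response feeds back on its own start. In the liver, hepatocytes, Kupffer cells and endothelial cells can all respond.

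The ISRE is the sequence feature by which these promoters are known, so its matches are shown for members that the results turn on. The pattern searched was GAAA, then any 2 bases, then GAAA, on both strands. It was read in the RefSeq promoter windows of build GRCm38.p6, each running from 250 bases before to 50 bases after a start site. Of the 37 members, 27 had a window, and 15 of these (55.6%) held at least 1 match, against 3.99% of all 27025 genes with a window. The pattern TTCNNNGAA (N for any base), the gamma-activated sequence (GAS) of genes that respond to interferon gamma, was found in 8 of the 27 (29.6%), against 9.55% of all genes. The patterns overlapped each other in 24 of 32851 windows. No window was at hand for Dhx58, Mx1, Mx2, Tlr7, Zbp1, Parp9, Parp14, Oas2, Usp18 and Rtp4. A match is a string of letters and not evidence of a site in use. Capitals mark 1 match in each of the 30-base stretches below, written along the gene's strand. TTTC in place of GAAA means that the match lies on the other strand. Bst2, Ifit1 and Irgm1 each held 2 matches, of which 1 is shown.
Eif2ak2, 18 bases after the start site, chr17:78882535-78882564, minus strand: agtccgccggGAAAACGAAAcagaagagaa
Isg15, 72 bases before the start site, chr4:156200871-156200900, minus strand: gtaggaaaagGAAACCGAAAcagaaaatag
Bst2, 124 bases before, chr8:71537577-71537606, minus strand: ccaggaaaatGAAACTGAAAggctgcagtt
Ifit1, 104 bases before, chr19:34640775-34640804, plus strand: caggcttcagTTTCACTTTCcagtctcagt
Oas3, 75 bases before, chr5:120777715-120777744, minus strand: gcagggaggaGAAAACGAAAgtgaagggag
Irgm1, 24 bases before, chr11:48871425-48871454, minus strand: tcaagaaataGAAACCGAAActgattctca

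Isg15 held 3 overlapping matches, and its whole window, chr4:156200769-156201068 on the minus strand, is shown with all of them in capitals. The window of Trim25, chr11:88999153-88999452 on the plus strand, is shown because Trim25 was the member with the most stable difference between the groups and its window held no match to either pattern.
Isg15 promoter: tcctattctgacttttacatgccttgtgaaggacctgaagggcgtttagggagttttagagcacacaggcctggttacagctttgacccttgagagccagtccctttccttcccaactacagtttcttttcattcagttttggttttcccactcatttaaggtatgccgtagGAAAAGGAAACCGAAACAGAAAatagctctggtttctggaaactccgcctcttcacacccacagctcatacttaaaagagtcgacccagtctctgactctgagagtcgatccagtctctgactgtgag
Trim25 promoter: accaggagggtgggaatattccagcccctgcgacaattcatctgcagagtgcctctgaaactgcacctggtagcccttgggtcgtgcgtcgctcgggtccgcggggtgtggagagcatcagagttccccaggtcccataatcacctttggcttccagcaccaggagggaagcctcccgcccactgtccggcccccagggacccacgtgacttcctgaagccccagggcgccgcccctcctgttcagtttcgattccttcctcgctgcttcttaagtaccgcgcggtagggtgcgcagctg

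The deposited tables gave 23637021 to 37043914 fragments per library. Yap1, the target of the siRNA, stood at 3.29 ± 0.845 FPKM in siYap tumours and 9.999 ± 1.37 FPKM in siLuc tumours (SD, n = 5 and 8), and no siYap library overlapped a siLuc library (log2 fold change -1.58 ± 0.17, edgeR adjusted p = 2.36e-05). FPKM scales the fragments of a gene by its transcript length and the library's depth, and CPM by depth alone. The siLuc 8 library stood apart: it had 28874 fragments of Y-linked genes, where no other library had more than 11. It had 393 fragments of Xist, an RNA of female cells, against 39760 to 80610 in the other libraries. The siYap 1 and siYap 3 libraries had the lowest totals and the most ribosomal precursor Rn45s, 1160 and 1882 CPM, against 479.5 to 811.8 in the other 11 libraries. In siYap 1 and siLuc 1 the FPKM that a fragment gave varied by gene, 0.641 to 1.19 and 0.834 to 1.51 times the gene's median over libraries, so the tests used fragment counts. Nothing in the labels ties a library to its own animal, and the p-values therefore measure only the spread between these libraries.

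Few of the interferon-stimulated genes differed between siYap and siLuc tumours beyond the spread between libraries. Trim25 and Oas2 rose and Eif2ak2 fell in siYap tumours, and the other 34 members did not pass the test. These 3 of 37 are 8.11%, against 30.8% of all 15132 genes tested (16.0% higher and 14.8% lower in siYap). The test was edgeR's quasi-likelihood test with Benjamini-Hochberg adjustment over all genes, at an adjusted p under 0.05. DESeq2 called the same 3 members. At an unadjusted p under 0.05, Ifnar2, Oas3 and Usp18 joined them, and none of the sensors, transcription factors, virus restriction factors, GTPases or ADP-ribosyltransferases did. That made 6 of 37 members, against 6451 of all 15132 genes at the same unadjusted threshold. The median log2 fold change over the members was 0.01, with 20 above 0 and 17 below, and over all genes it was -0.003. The median size of the change, sign aside, was 0.20 for members and 0.40 for all genes. Only Oas2 and Trim25 changed by more than 1 on the log2 scale, whereas 16.4% of all genes did.

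A missed test does not show that a gene is the same in both groups, and the intervals say how far a difference could reach. For 24 of the 37 members the 95% interval of the fold change lay within 2-fold either way, and 13 intervals reached 2-fold. Among all genes tested 55.7% of intervals lay within 2-fold. All 37 members overlapped between the groups in FPKM and in CPM. In FPKM, 5.57% of all genes had every siYap library above every siLuc library and 5.66% every one below. Mean levels ran from 1.98 to 147.3 FPKM in siYap tumours and from 1.19 to 95.3 FPKM in siLuc tumours, and the lowest count of any member in any library was 34 fragments.

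**Figure D1:**
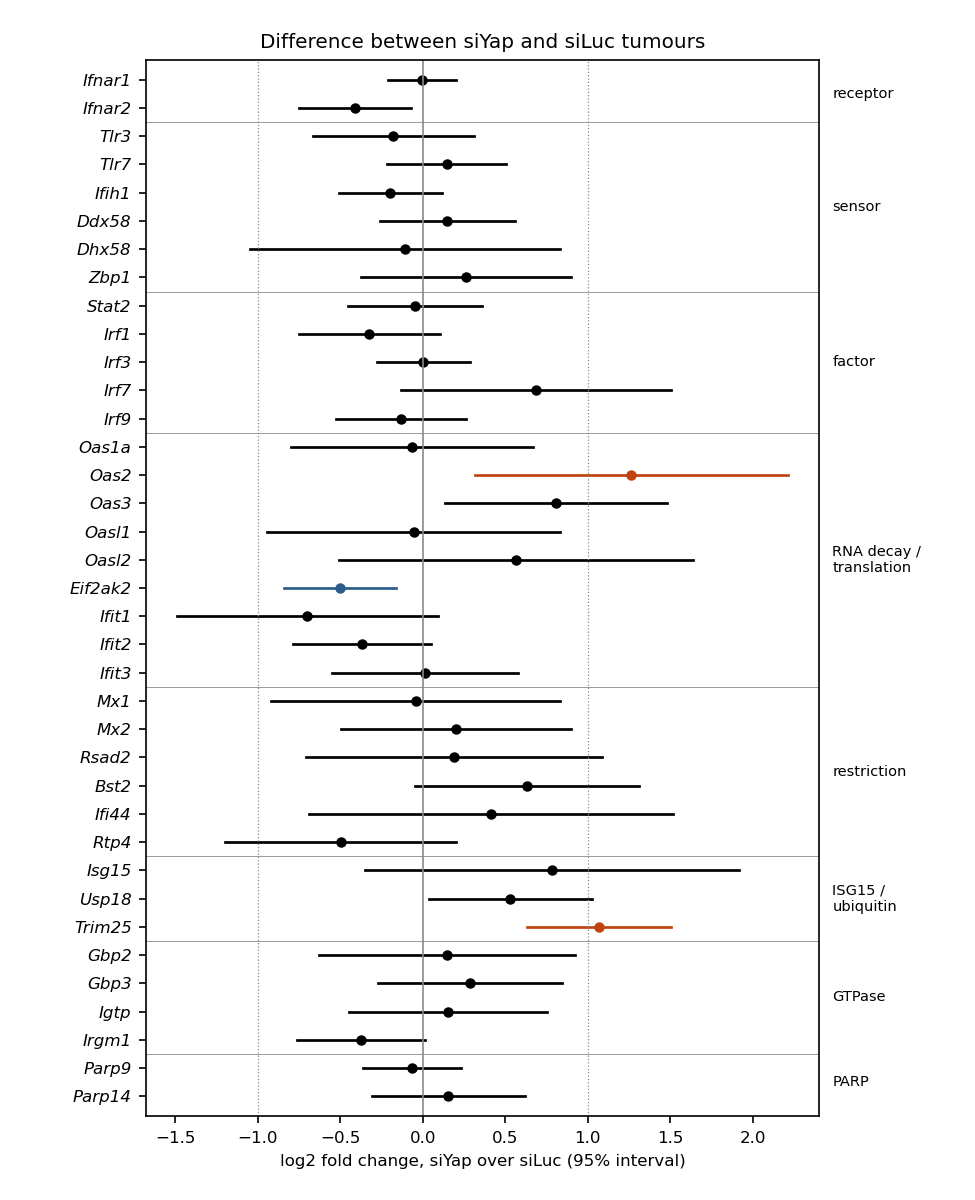
Log2 fold change of each member, siYap over siLuc, with its 95% interval derived from the edgeR test, grouped by role. Orange and blue mark members that passed the test as higher or lower in siYap, and dotted lines mark a 2-fold difference. Trim25 (1.07), Oas2 (1.26) and Eif2ak2 (-0.50) passed, and 13 intervals reach a dotted line.

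The receptor chains came first in the pathway and neither passed the test. Ifnar2, the chain that binds interferon most tightly, had 65.8, 63.5, 39.4, 60.7 and 92.7 FPKM in the siYap libraries, against 72.4, 82.1 and 118.5 FPKM as the lowest, median and highest of the siLuc libraries. In FPKM siYap 5 lay inside the siLuc range and the other siYap libraries lay under it. In CPM siYap 1 (98.1) was inside it too, above siLuc 4 (94.0). The log2 fold change was -0.41 ± 0.16 with an adjusted p of 0.0625 (edgeR). Without siYap 5 the value was -0.56 and Ifnar2 passed. Ifnar1, the partner chain, averaged 16.6 ± 1.27 FPKM in siYap tumours and 16.9 ± 1.05 FPKM in siLuc tumours (log2 fold change -0.01, 95% interval -0.21 to 0.20). Ifnar1 was the tightest member of all, and its interval lay well within 2-fold. Ifnar2 shares 9.5% of its exon bases with Gm21970 on the same strand.

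None of the 6 sensors passed the test. Ifih1, also known as Mda5, which binds long double-stranded RNA, was the most abundant and had 40.5, 35.4, 26.8, 33.9 and 38.1 FPKM in siYap tumours, against 26.3, 40.1 and 53.0 FPKM (lowest, median, highest) in siLuc tumours. All siYap values fell inside the siLuc range, and the log2 fold change was -0.20 ± 0.15 (edgeR adjusted p = 0.322). Ddx58, or RIG-I, which binds RNA with a triphosphate end, averaged 25.6 ± 4.93 FPKM in siYap tumours and 23.0 ± 5.91 FPKM in siLuc tumours. Tlr3, the endosomal receptor for double-stranded RNA, averaged 3.74 ± 1.73 and 4.12 ± 1.70 FPKM in siYap and siLuc tumours. Tlr7, the endosomal receptor for single-stranded RNA that can respond to siRNA, averaged 4.37 ± 1.01 and 3.93 ± 1.06 FPKM. Dhx58, a regulator of the other helicases, and Zbp1, which binds Z-form nucleic acid, averaged 8.53 and 24.1 FPKM in siYap tumours and 9.22 and 22.4 FPKM in siLuc tumours. The 6 log2 fold changes ran from -0.20 to 0.26, with 3 on each side of 0.

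None of the 5 transcription factors passed either. Irf7, the factor that amplifies interferon alpha production and is itself induced by interferon, had 68.2, 35.6, 33.8, 24.1 and 48.6 FPKM in siYap tumours, against 9.88, 26.6 and 51.7 FPKM in siLuc tumours (lowest, median, highest). The siYap 1 library was above every siLuc library and the other 4 were inside the siLuc range (log2 fold change 0.68 ± 0.38, edgeR adjusted p = 0.186). Without siLuc 1 the value was 0.95 and Irf7 passed. Irf3, the factor that sensors activate without new synthesis, averaged 17.1 ± 3.83 FPKM in siYap tumours and 17.2 ± 2.40 FPKM in siLuc tumours. Stat2 and Irf9, which are parts of the ISRE-binding factor, had log2 fold changes of -0.05 and -0.13. Irf1, a factor more responsive to interferon gamma, averaged 21.2 ± 3.0 FPKM in siYap tumours and 26.9 ± 7.37 FPKM in siLuc tumours (log2 fold change -0.32 ± 0.20, adjusted p = 0.230). Irf3, Irf7 and Irf9 each share up to 2.6% of exon bases with a neighbouring gene, and the authors' handling of strand is not given in the sources used here.

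The 9 members that degrade RNA or block translation included 1 that rose, 1 that fell and 7 that did not pass, beside the 30.8% of all genes that passed. Oas2, at chr5:120730333-120749853, makes an oligoadenylate messenger when it binds double-stranded RNA. It had 4.85, 2.04, 3.66, 1.24 and 1.26 FPKM in siYap tumours, against 0.209, 1.24 and 1.76 FPKM (lowest, median, highest) in siLuc tumours. Of the siYap libraries, 3 were above every siLuc library, and siYap 4 and siYap 5 lay near the siLuc median. The means were 2.61 ± 1.59 and 1.19 ± 0.472 FPKM in siYap and siLuc tumours, with a log2 fold change of 1.26 ± 0.45 and an edgeR adjusted p of 0.0433. Oas2 was called in 12 of 27 settings, with adjusted p-values from 0.00896 to 0.652. Leaving out any of siLuc 1, 3, 4, 6 or 7 or of siYap 1 or 3 ended the call, with log2 fold changes of 0.75 (without siYap 1) to 1.29 (without siLuc 7). Without siYap 1 and siYap 3 together the value was 0.31. These are the libraries with the highest Rn45s, and the part that RNA quality has in the value was not tested.

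Eif2ak2 encodes PKR, the kinase that stops translation by phosphorylating eIF2 alpha when it binds double-stranded RNA. Its gene is at chr17:78852564-78882573, and its ISRE match is printed above. It had 18.9, 17.9, 13.3, 15.4 and 18.9 FPKM in siYap tumours, against 16.5, 23.9 and 31.5 FPKM (lowest, median, highest) in siLuc tumours. In FPKM siLuc 8 was as low as the siYap libraries and the other 7 siLuc libraries were higher than every siYap library. In CPM siYap 1 (116.1) was also above siLuc 4 (103.4) and siLuc 7 (112.6). The means were 16.9 ± 2.46 and 24.0 ± 4.33 FPKM in siYap and siLuc tumours (log2 fold change -0.50 ± 0.16, edgeR adjusted p = 0.0271). Eif2ak2 was called in 23 of 27 settings, with adjusted p-values from 0.00986 to 0.135, and the call was lost without siYap 3 or without siYap 4 (log2 fold change -0.42 and -0.46).

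Of the remaining oligoadenylate synthetases, Oas3, which makes the same messenger, averaged 1.98 ± 0.669 FPKM in siYap tumours and 1.19 ± 0.440 FPKM in siLuc tumours (log2 fold change 0.81 ± 0.32, edgeR adjusted p = 0.0640). Oas3 passed without siLuc 1 (0.92) and without siYap 5 (0.95). Oas1a averaged 8.80 ± 2.80 and 9.80 ± 3.22 FPKM in siYap and siLuc tumours, and Oasl1 and Oasl2 had log2 fold changes of -0.06 and 0.57. Ifit2, of the family that binds foreign 5′ ends of RNA, had 24.3, 36.0, 22.4, 46.9 and 42.3 FPKM in siYap tumours, against 30.6, 44.2 and 60.6 FPKM in siLuc tumours (lowest, median, highest). The siYap 1 and siYap 3 libraries were below all siLuc libraries (log2 fold change -0.37 ± 0.20, adjusted p = 0.163). Ifit1 averaged 28.2 ± 7.63 FPKM in siYap tumours and 45.9 ± 26.3 FPKM in siLuc tumours (log2 fold change -0.70 ± 0.37, adjusted p = 0.162), and Ifit3 averaged 37.4 ± 11.8 and 36.8 ± 13.2 FPKM. The members of each family are paralogs, and how the authors shared out multi-mapped fragments is not given in the sources used here, so values of single paralogs carry that uncertainty.

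**Figure D2:**
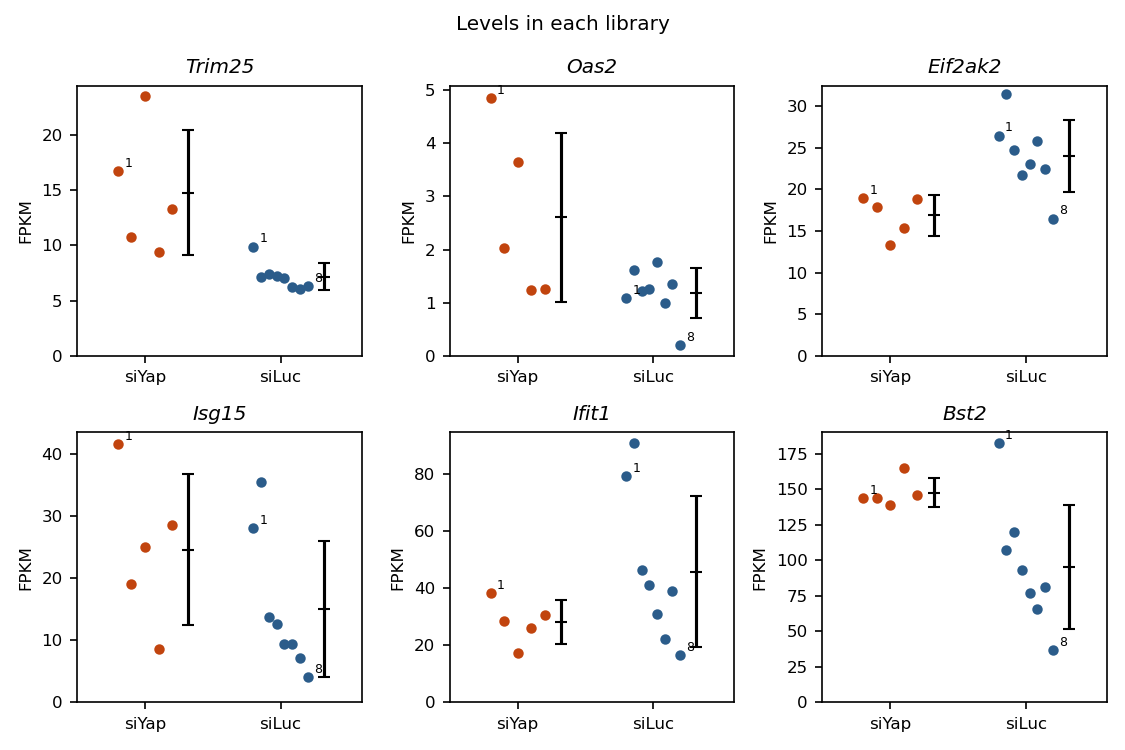
FPKM of 6 members in each siYap library (left, orange) and each siLuc library (right, blue), with the mean and SD beside them; digits mark siYap 1, siLuc 1 and siLuc 8. Trim25 is between 9.36 and 23.5 FPKM in siYap and between 6.08 and 9.88 FPKM in siLuc. Isg15 and Ifit1 overlap widely, and Bst2 overlaps only through siLuc 1 (182.5 FPKM).

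None of the 6 members that hold back viruses passed the test. Bst2, or tetherin, which ties virus particles to the cell surface, was the most abundant member of all and had 143.6, 143.9, 138.5, 164.9 and 145.6 FPKM in siYap tumours. The siLuc libraries had 36.9, 87.0 and 182.5 FPKM as lowest, median and highest. In FPKM the siYap libraries were below siLuc 1 and above the other 7 siLuc libraries. In CPM siYap 1 had 148.1, above siLuc 1 with 145.2, and the other 4 siYap libraries had 87.2 to 97.9, above the other 7 siLuc libraries (log2 fold change 0.63 ± 0.32, edgeR adjusted p = 0.142). Without siLuc 1, Bst2 had a log2 fold change of 0.93 and an adjusted p of 0.00688. Mx1, a GTPase gene, averaged 5.80 ± 2.21 FPKM in siYap tumours and 6.24 ± 2.63 FPKM in siLuc tumours, and Mx2, its paralog, 8.90 ± 2.59 and 8.11 ± 3.23 FPKM. Rsad2, or viperin, averaged 10.8 ± 3.98 and 9.52 ± 7.02 FPKM in siYap and siLuc tumours. Ifi44 averaged 24.4 ± 15.8 and 18.9 ± 13.7 FPKM, and Rtp4 averaged 12.5 ± 3.42 and 17.9 ± 7.65 FPKM, each in siYap and siLuc tumours. The 4 with positive and 2 with negative log2 fold changes ran from -0.50 to 0.63.

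Isg15, Usp18 and Trim25 form the group around the ubiquitin-like protein ISG15. Trim25, at chr11:88999376-89020293, is the ubiquitin ligase that activates RIG-I, and it rose in siYap tumours. It had 16.7, 10.8, 23.5, 9.36 and 13.3 FPKM in siYap tumours, against 6.08, 7.10 and 9.88 FPKM in siLuc tumours (lowest, median, highest). Every siYap library except siYap 4 was above all siLuc libraries, and siYap 4 was above all but siLuc 1. The means were 14.7 ± 5.65 and 7.16 ± 1.21 FPKM in siYap and siLuc tumours (log2 fold change 1.07 ± 0.20, edgeR adjusted p = 0.00144). Trim25 was called in all 27 settings, with log2 fold changes of 0.61 to 1.2 and adjusted p-values up to 0.0253. As in Oas2, siYap 1 and siYap 3 were the highest libraries, and without both of them Trim25 was called with a log2 fold change of 0.61 (adjusted p = 0.0253).

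Usp18, which removes ISG15 from proteins and blocks the receptor, had 37.3, 44.9, 23.0, 33.6 and 45.5 FPKM in siYap tumours, against 13.9, 24.9 and 41.3 FPKM in siLuc tumours. The siYap 2 and siYap 5 libraries were above all siLuc libraries, and in CPM siYap 1 was too (log2 fold change 0.53 ± 0.23, edgeR adjusted p = 0.0947). Without siLuc 1 the value was 0.66 and Usp18 passed. Isg15, at chr4:156199424-156200818, had 41.6, 19.1, 25.1, 8.57 and 28.6 FPKM in siYap tumours, against 4.06, 11.0 and 35.6 FPKM in siLuc tumours. The siYap 1 library was above the siLuc range and the other 4 were inside it, and the log2 fold change of 0.78 ± 0.53 (95% interval -0.35 to 1.92, adjusted p = 0.275) was not distinguishable from 0.

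None of the 4 GTPases and neither ADP-ribosyltransferase passed the test. Irgm1, a GTPase of host defence inside vacuoles, had 50.9, 58.6, 43.7, 54.2 and 60.7 FPKM in siYap tumours, against 43.0, 68.9 and 101.8 FPKM in siLuc tumours (lowest, median, highest). All siYap libraries were below the siLuc median and inside the siLuc range (log2 fold change -0.37 ± 0.18, edgeR adjusted p = 0.132), and Irgm1 passed without siLuc 8 (-0.45). Igtp, of the same family, and Gbp2 and Gbp3, the guanylate-binding proteins, averaged 39.3, 25.4 and 18.9 FPKM in siYap tumours and 35.3, 23.2 and 15.7 FPKM in siLuc tumours. These are members of multigene families, and Igtp shares 8.0% of its exon bases with Irgm2 on the same strand. Parp9 had 42.8, 38.9, 31.1, 38.9 and 43.8 FPKM in siYap tumours, against 30.0, 39.9 and 56.6 FPKM in siLuc tumours, and Parp14 averaged 26.6 ± 6.08 and 24.0 ± 6.74 FPKM in siYap and siLuc tumours. Both PARPs modify proteins of the interferon response, and their log2 fold changes were -0.07 and 0.16. Parp9 shares 9.4% of its exon bases with Dtx3l on the opposite strand.

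Libraries of the same group lay further apart in the members than the group means did. The mean log2 deviation of the 37 members from the siLuc mean was 0.66 in siYap 1, 0.20 in siYap 5, and between -0.05 and 0.04 in siYap 2, siYap 3 and siYap 4, with a group mean of 0.165. In the siLuc group it was 0.74 in siLuc 1, -1.09 in siLuc 8, and between -0.16 and 0.26 in the other 6 libraries. The siLuc 8 library had the lowest CPM of its group for 30 of 37 members, and siLuc 1 the highest for 28. In the siYap group, siYap 1 had the highest for 23 members and siYap 3 the lowest for 19. The ratio of the highest to the lowest library, as a median over members, was 2.1 in siYap tumours and 3.63 in siLuc tumours. For all genes it was 2.02 and 2.05 in siYap and siLuc tumours. Without siLuc 8 the members' ratio in the siLuc group was 2.02, against 1.93 for all genes.

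**Figure D3:**
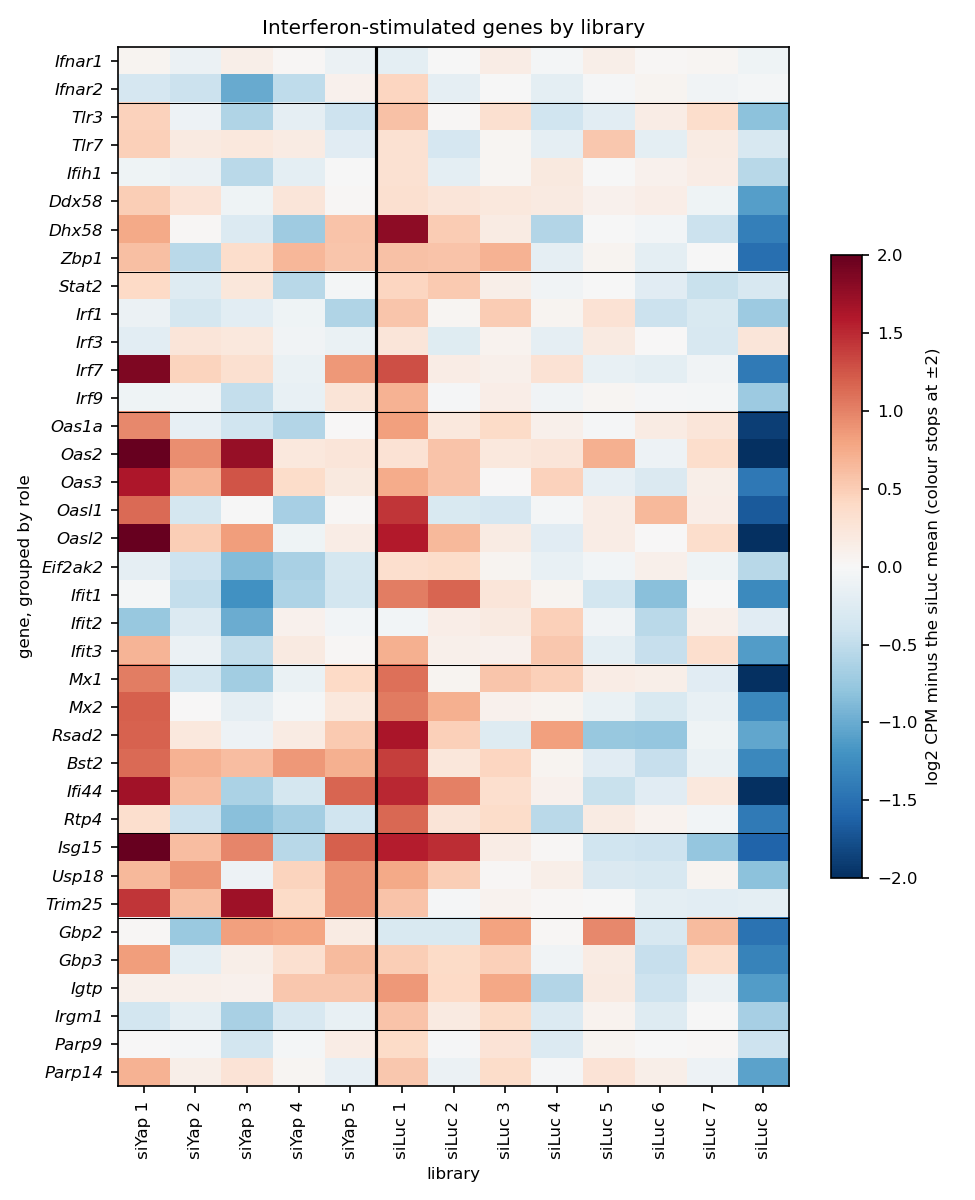
Log2 CPM of each member in each library minus the siLuc mean, siYap libraries left of the black line and siLuc libraries right of it; rows are grouped by role. The siLuc 8 column is low for 36 of 37 members and siLuc 1 is high for 34, while Trim25 is high across the siYap columns.

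The deposited file names carry codes that begin with 6, 7 or 8, whose meaning is not given in the sources used here. Within code 6 (2 siYap and 2 siLuc libraries) the members' mean log2 difference, siYap minus siLuc, was -0.15, and within code 7 (2 and 5 libraries) it was -0.05. Within code 8 it was 1.29, but there it rests on siYap 5 and siLuc 8 alone. These 2 libraries also differed in Y-linked fragments (7 in siYap 5 and 28874 in siLuc 8), so sex and siRNA cannot be told apart there. Members were higher in siYap for 12 of 37 in code 6, 17 in code 7 and 35 in code 8. Trim25 was higher in siYap within each code (0.74, 1.11 and 1.10), as was Oas2 (1.33, 0.69 and 2.53). In all, 9 of 37 members had the same sign within each code. Besides Trim25 and Oas2 these were Tlr7, Irf7, Oas3, Oasl2, Bst2, Usp18 and Parp14, all higher in siYap and none called in the main test. Eif2ak2 was lower within codes 6 and 7 (-0.65 and -0.73) and higher within code 8 (0.20). Yap1 was lower within each (-1.31, -1.97 and -1.63). The file names also carry numbers that some libraries share, 3 numbers over the siYap libraries and 5 over the siLuc libraries. With counts summed per number, Trim25 was the only member called, with 24.3% of all genes called.

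**Figure D4:**
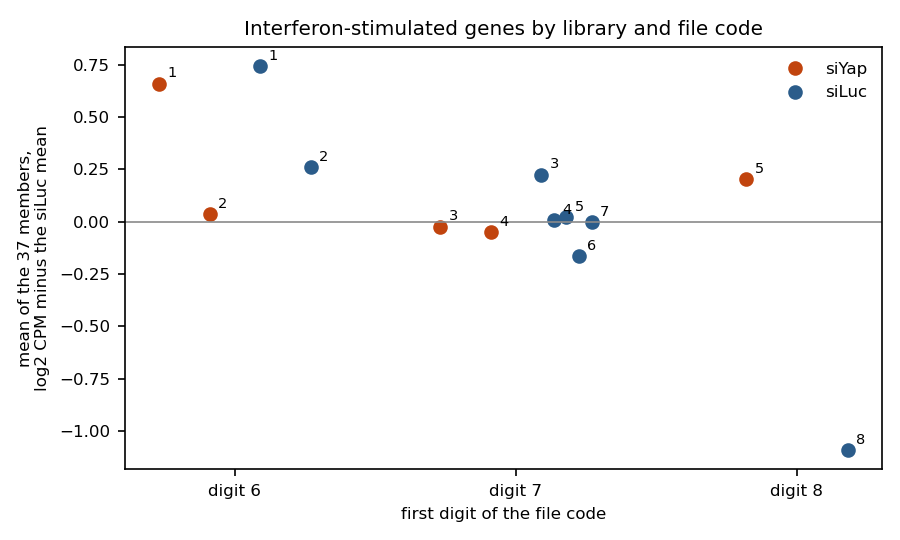
Mean of the 37 members in each library, as log2 CPM minus the siLuc mean, by the leading digit of the file code; orange is siYap, blue is siLuc, and numbers are replicate numbers. The groups interleave under digits 6 and 7, and under digit 8 siYap 5 (0.20) and siLuc 8 (-1.09) are far apart.

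The interferons themselves were almost absent. Of 19 interferon genes in the tables, 13 had 0 fragments in every library. Apart from Ifnk and Ifng, 4 of 17 had any fragment, with at most 2 in a library and sums of 2 in siYap tumours and 4 in siLuc tumours. A count of 0 allows up to 3 fragments, which is 0.081 to 0.127 CPM at these depths and covers counting error only. Ifnk, an interferon best known from keratinocytes, was the exception and the only one to pass the filter on low counts. It had 7.39, 2.02, 5.20, 1.56 and 1.018 FPKM in siYap tumours, against 0.460, 0.872 and 1.49 FPKM in siLuc tumours (lowest, median, highest). In FPKM all siYap libraries but siYap 5 were above all siLuc libraries, with siYap 1 and siYap 3 the highest, and in CPM siYap 4 (0.995) was also below siLuc 4 (1.06). Ifnk rose with a log2 fold change of 1.81 ± 0.42 (edgeR adjusted p = 0.00537), and without siYap 1 and siYap 3 the value was 0.74 and the call was lost. Ifng had 2 to 6 fragments in siYap tumours and 0 to 32 fragments in siLuc tumours. Without the filter it had a log2 fold change of -0.79 (edgeR adjusted p = 0.572), and Ifnk was the only interferon called of 6 tested. Ifnk lies inside Mob3b on the opposite strand and shares no exon bases with it. Mob3b averaged 7.68 ± 1.69 FPKM in siYap tumours and 6.15 ± 1.45 FPKM in siLuc tumours (log2 fold change 0.32, adjusted p = 0.167).

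Among the other receptor chains and Jak-Stat genes, 1 of 8 tested rose and 2 fell (edgeR), beside the 30.8% of all genes that passed. Jak1, a kinase of the receptor, rose to 50.4 ± 3.42 FPKM in siYap tumours, against 36.8 ± 5.44 FPKM in siLuc tumours (log2 fold change 0.45, adjusted p = 0.0137), with no overlap between groups in FPKM, while in CPM siYap 2 (253.4) was below siLuc 3 (260.3). Il10rb, the chain shared by the interferon lambda and interleukin 10 receptors, fell to 11.6 ± 1.62 FPKM in siYap tumours, against 23.4 ± 2.43 FPKM in siLuc tumours (log2 fold change -0.99, adjusted p = 6.19e-05), without overlap in FPKM or CPM. Il10rb shares 14.9% of its exon bases with Gm21970, the gene that also overlaps Ifnar2. Jak2, the kinase of the interferon gamma receptor, fell to 15.5 ± 1.82 FPKM in siYap tumours, against 22.3 ± 4.05 FPKM in siLuc tumours (log2 fold change -0.53, adjusted p = 0.0144). Without siYap 1 and siYap 3, Jak1 and Jak2 kept log2 fold changes of 0.42 and -0.48 with adjusted p-values of 0.0535 and 0.0633, and Il10rb was called (-1.14).

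Among the adaptors and partners of the sensors, 3 of 16 tested rose and 1 fell, beside the 30.8% of all genes that passed. Mavs, the mitochondrial adaptor of RIG-I and Mda5, rose to 13.9 ± 3.75 FPKM in siYap tumours, against 9.21 ± 1.12 FPKM in siLuc tumours (log2 fold change 0.65, edgeR adjusted p = 0.00282). Ripk3, a kinase of necroptosis that Zbp1 engages, rose to 1.29 ± 0.183 FPKM in siYap tumours, against 0.729 ± 0.278 FPKM in siLuc tumours (log2 fold change 0.87, adjusted p = 0.0288), but not without siYap 1, siYap 3 or siYap 5 (0.80 to 0.85). Tmem173, or STING, the adaptor of cytosolic DNA sensing, fell to 1.77 ± 0.666 FPKM in siYap tumours, against 4.64 ± 1.34 FPKM in siLuc tumours (log2 fold change -1.39, adjusted p = 0.00112). The groups did not overlap in FPKM, while in CPM siYap 1 (7.83) was above siLuc 1 (7.56). Tmem173 is also expressed by macrophages, of whose 12 markers 7 fell, and by endothelial cells, of whose 8 markers 3 rose and none fell, and the part of cell number in its value was not tested.

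Of the 16 negative regulators tested, 2 rose and 1 fell, against 30.8% of all genes called. Irf2, which competes with Irf1, rose to 6.54 ± 2.93 FPKM in siYap tumours, against 3.29 ± 0.807 FPKM in siLuc tumours (log2 fold change 1.01, edgeR adjusted p = 0.00725). Its value without siYap 1 and siYap 3 was 0.44 and not called. Cyld, a deubiquitinase that acts on RIG-I, had a log2 fold change of 0.37 and Atg12, an autophagy conjugate that binds RIG-I and Mavs, one of -0.36 (adjusted p = 0.0337 and 0.0241). Cyld was not called without any of siLuc 1, 2, 4 or 6 or of siYap 1, 2 or 4 (0.33 to 0.37), and Atg12 without siYap 1 or siYap 3 (-0.32 and -0.30).

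Of 57 other interferon-induced genes tested, 3 rose, 5 fell and 49 did not pass, with a median log2 fold change of -0.06. Pml, the scaffold of nuclear bodies, rose to 2.54 ± 1.49 FPKM in siYap tumours, against 1.04 ± 0.258 FPKM in siLuc tumours (log2 fold change 1.33, edgeR adjusted p = 0.00515), and without siYap 1 and siYap 3 its value was 0.49 and not called. Parp12, an ADP-ribosyltransferase, fell to 34.2 ± 4.39 FPKM in siYap tumours, against 56.2 ± 5.94 FPKM in siLuc tumours (log2 fold change -0.70, adjusted p = 0.000778), with no overlap between groups. Trim21, a cytosolic antibody receptor, and Pnpt1, a mitochondrial RNA nuclease, fell with log2 fold changes of -0.60 and -0.71 (adjusted p = 0.00764 and 0.0118). Gbp6 and Sp100 were the other genes that rose, and Trim34a and Epsti1 the others that fell, and each of these 4 lost its call when some library was left out. These 8 of 57 compare with 30.8% of all genes.

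**Figure D5:**
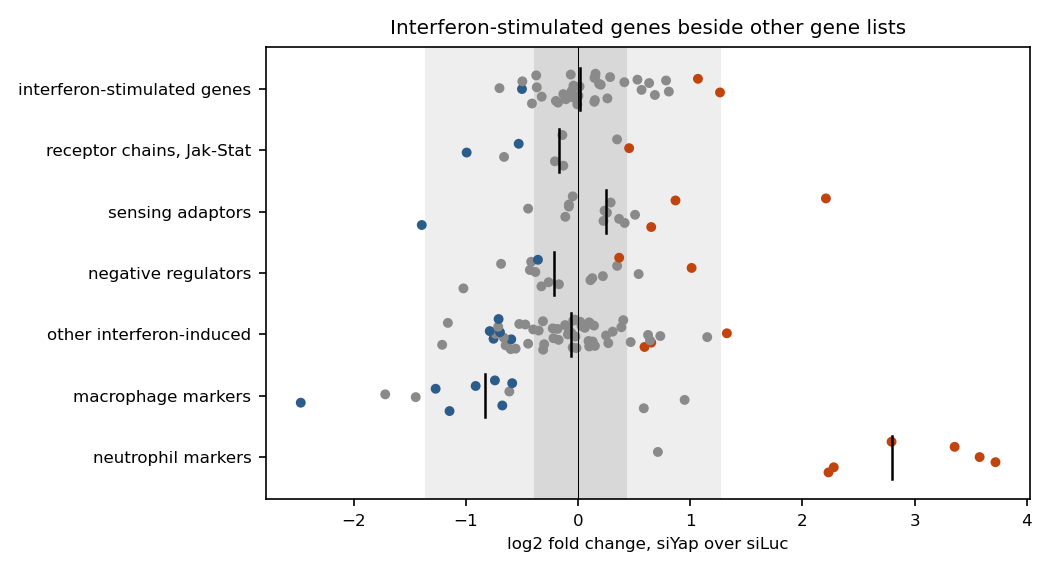
Log2 fold change, siYap over siLuc, of the tested genes of each list; orange, blue and grey are higher, lower and not called, black bars are medians, and grey bands hold the middle 50% and 90% of all genes tested. The 37 members centre on 0.01, the 12 macrophage genes on -0.83 and the 7 neutrophil genes on 2.79.

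Some markers of cells that can respond to interferon also differed between the groups. Over all marker lists 28 of 68 genes tested were called, beside 30.8% of all genes. Of 12 macrophage and Kupffer cell markers, 7 fell and none rose, and their summed FPKM was 415.4 to 678.1 in siYap tumours and 785.3 to 1559 in siLuc tumours. Lyz2, the most abundant, stood at 303.6 ± 88.1 FPKM in siYap tumours and 767.8 ± 245.8 FPKM in siLuc tumours. Of 7 neutrophil markers, 6 rose, with sums of 163.3 to 1243 FPKM in siYap tumours and 35.03 to 203.4 FPKM in siLuc tumours. The siYap 1 library, highest for most members, had the highest neutrophil sum, 1243 FPKM, and siLuc 8, lowest for most members, the lowest, 35.03 FPKM. They were likewise highest and lowest of their groups for T and NK cell markers (16.5 and 5.97 FPKM) and plasmacytoid dendritic cell markers (10.3 and 2.72 FPKM). For hepatocyte markers the order was reversed (12080 and 27650 FPKM). In the leukocyte and B cell lists only siYap 1 was so placed, and in the endothelial list only siLuc 8. In the macrophage and conventional dendritic cell lists neither was. The siLuc 1 library, high for most members, had a neutrophil sum of 90.1 FPKM, inside the siLuc range. Hepatocyte markers summed to 12080 to 20230 FPKM in siYap tumours and 17280 to 27650 FPKM in siLuc tumours, with 1 of 10 higher and 4 lower, and hepatocyte transcripts were abundant in all libraries. Of 6 markers of plasmacytoid dendritic cells, the main makers of interferon alpha, 3 were tested and 1 rose. That was Ccr9, at 0.932 ± 0.240 FPKM in siYap tumours and 0.490 ± 0.146 FPKM in siLuc tumours (log2 fold change 0.97, edgeR adjusted p = 0.00969). Siglech did not pass, at 0.390 ± 0.194 FPKM in siYap tumours and 0.735 ± 0.338 FPKM in siLuc tumours (log2 fold change -0.87, adjusted p = 0.151). Of 8 endothelial markers, 3 rose and none fell, beside the 30.8% of all genes called. Their sums were 50.5 to 119.0 FPKM in siYap tumours and 43.7 to 112.2 FPKM in siLuc tumours. The part that these cells have in the members' values was not tested.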

How the data were processed

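RNA-seq of 13 mouse liver tumour samples was used, 5 siYap and 8 siLuc, grouped by their titles. Per the submitters' processing notes, the tools were Trimmomatic 0.30, TopHat2 2.0.8, Cufflinks and Cuffdiff 2.1.1 with build mm10. The kit was ScriptSeq Complete Gold and the sequencer a HiSeq2500, per the labels' protocols. How strand and multi-mapped reads were handled, and with which annotation, is not given in the sources used here. The authors deposited, per library, an estimated count of fragments per gene (97.6% to 98.0% whole within 1e-06) and FPKM, as their file headers name them. The estimated counts were rounded.

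Differences were tested with edgeR 4.0.16 (R 4.3.3) by the quasi-likelihood test, with TMM scaling, genes filtered by filterByExpr and Benjamini-Hochberg adjustment over 15132 genes, called at an adjusted p under 0.05; intervals are 95%. Errors beside log2 fold changes are approximate standard errors, derived from the fold change and the F statistic of the test. The intervals were built from these errors. Levels are the deposited FPKM, mean ± SD; the order of libraries was also read in CPM, a choice made after seeing the data. The script was tested on simulated data. Alternatives were DESeq2 1.42.0, limma 3.58.1 on log2(FPKM + 1) and log2(FPKM + 0.1), other scalings and filters, and libraries left out; a setting is the test above or 1 of 26 alternatives. Members called and the most abundant member of each role are given by library, as are companion genes with the smallest p. The members and lists were chosen with earlier results of these data known. Gene positions and exon overlaps are from GENCODE M21 (GRCm38) and promoter sequences from RefSeq (GRCm38.p6). A further table of FPKM over the whole series was not used. Some genes of the companion lists are counted but not reported here by name.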

Additional observations from a re-analysis of the deposited data

Results flagged for a closer look

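Among 74 groups of members' FPKM values examined for a library far from the rest of its group, 7 were found, where chance gives about 1 in 20. The library siLuc 1 was far above the others for Ifnar2 (118.5 FPKM, next 91.6), Tlr3 (7.72 FPKM, next 4.66), Rsad2 (24.7 FPKM, next 13.7) and Trim25 (9.88 FPKM, next 7.40). The library siLuc 8 was far below the others for Oas1a (2.47 FPKM, next 9.01). In the siYap group, siYap 1 was far above the others for Tlr3 (6.76 FPKM, next 3.44) and siYap 4 for Bst2 (164.9 FPKM, next 145.6).

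The FPKM per fragment varied by gene in siLuc 1 and siYap 1, so the same comparison was made in CPM (fragments scaled by library depth), a choice made after seeing the data. Tlr3 in siLuc 1 then stood at 25.1, next to 24.0, and was no longer apart, and Ifnar2 and Rsad2 in siLuc 1 also fell under the critical gap (137.7 and 95.7, next 116.7 and 56.7). Trim25 in siLuc 1 (62.8, next 50.1), Tlr3 in siYap 1 (28.0, next 15.6) and Oas1a in siLuc 8 (4.99, next 18.6) remained apart. Bst2 in siYap 4 was no longer the highest of its group.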

How the results depend on the processing

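Counts of calls moved as follows, the main counts being 3 members, 1 ligand, 3 receptor and Jak-Stat genes, 4 adaptors, 3 negative regulators, 8 other interferon-induced genes, 28 markers and 4668 of all genes. DESeq2 called 14 other interferon-induced genes, beside 27.9% of all genes. With a mean count of at least 50, Ifnk was not tested and 0 ligands could be called. The replicate block called 5 members (Trim25 higher; Irf1, Eif2ak2, Ifit1 and Rtp4 lower), 0 ligands, 1 receptor gene, 2 adaptors, 1 regulator, 10 markers and 2325 of all genes. Same-numbered libraries correlated at -0.12 to 0.127 and only 2 of 5 best with their own number, so the numbers were not taken to pair samples. With the file code as a term, 5 members and 5 regulators were called, beside 33.6% of all genes. Summed per file number, 1 member, 1 regulator and 4 other induced genes were called, beside 24.3% of all genes. Without siYap replicates 1 and 3, 1 member, 0 ligands, 1 receptor gene, 0 regulators (2 of 16 at an unadjusted p under 0.05, edgeR), 4 other induced genes, 18 markers and 2984 of all genes were called. With the adjusted p threshold at 0.01, the counts were 1 member, 1 receptor gene, 1 regulator, 3 other induced genes, 14 markers and 2362 of all genes. Leaving out 1 library gave 1 to 6 members (1 without siYap 3; 6 without siLuc 1, with Irf7, Oas3, Bst2, Usp18 and Trim25 higher and Eif2ak2 lower; 5 without siYap 5), 1 to 4 regulators and 4 to 13 other induced genes (4 without siYap 3, 13 without siLuc 8). With 1 library left out, 21.8% (without siYap 3) to 30.8% (without siLuc 1) of all genes were called. Over all settings 12 members were ever called and 25 never, and 18 uncalled members changed sign at least once. The same counts over all genes are not given here, so these have no background beside them. Single settings called between 15.4% (replicate block) and 34.8% (mean count of at least 50) of all genes. The median of all genes moved by at most 0.051. Causes were not tested. The lowest count of a member was 34 fragments, and no interferon other than Ifnk passed the filter on low counts.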

Other observations

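Ly6d, the most abundant gene of the plasmacytoid dendritic cell list and one that other cells also express, had 0.949 to 8.77 FPKM in siYap tumours and 1.43 to 187.4 FPKM in siLuc tumours. The top value was in siLuc 1, which was also the siLuc library with the highest interferon-stimulated genes, and the next siLuc value was 37.2 FPKM. It was singled out after its values were seen. Of 12 T and NK cell markers tested, 2 rose, 1 fell and 9 did not pass, beside the 30.8% of all genes called. The granzymes Gzma and Gzmb rose, to 4.60 ± 1.65 and 0.821 ± 0.358 FPKM in siYap tumours, against 1.88 ± 0.644 and 0.311 ± 0.2 FPKM in siLuc tumours (SD, n = 5 and 8), with edgeR adjusted p-values of 0.00553 and 0.0287. Cd3g, a chain of the T cell receptor complex, fell to 2.22 ± 0.930 FPKM in siYap tumours, against 6.44 ± 4.44 FPKM in siLuc tumours (adjusted p = 0.0493).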
